A study of Mus musculus with 97 samples.

Results

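Cdk5r1-MADM cortex at E16, in which single labelled cells lose Cdk5r1 while most of the tissue keeps it, was compared with control-MADM cortex of the same age. The libraries were chosen by genotype, age and at least 50% uniquely aligned reads, which gave 7 Cdk5r1-MADM and 12 control-MADM libraries, 19 of the 97 samples in the series. The mice carried the MADM-11 cassettes GT and TG on chromosome 11 and Emx1-Cre, which acts in the dorsal telencephalic lineage that gives rise to cortical projection neurons and glia, on a CD1 background with both sexes. Under the genotype MADM-11 GT/TG,Cdk5r1 with that driver, the GFP-labelled cells were homozygous for the Cdk5r1 deletion within an otherwise heterozygous cortex. Under MADM-11 GT/TG with the same driver, the control, they were wild type. For each library 2000 GFP-positive cells were sorted from the cortex of 1 animal, and polyadenylated RNA was amplified and sequenced. KO-Cdk5r1-MADM, in which the whole cortex lacks Cdk5r1, entered the fit with 11 libraries so that the genotypes shared an estimate of the spread.

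Cdk5r1 encodes p35, the main activator of the kinase CDK5 in postmitotic neurons. CDK5 needs p35 or the related p39, which is encoded by Cdk5r2, for its activity and phosphorylates proteins of the cytoskeleton, of adhesion and of vesicle release. Cortical projection neurons that lack p35 or CDK5 are known for migration defects, and the sparse deletion asks which part of the response arises within the mutant cell itself.

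Counts on genes ran from 867748 to 6946345 in control-MADM and from 2768307 to 5267196 in Cdk5r1-MADM. Exact two-sided permutation tests of the total, of the percent of aligned reads outside genes and of the percent of counts on mitochondrial genes gave an adjusted p = 0.389 for each of the 3 measures. Reads outside genes made up 9.84%, 16.3% and 24% (lowest, median and highest) in control-MADM and 16.1%, 17.2% and 18.9% in Cdk5r1-MADM. The control libraries spread further than the mutant libraries in each measure. In 6 of the 12 control libraries more reads lay on mt-Nd3, a mitochondrial gene for a subunit of complex I, than on its nuclear copy Gm28438, and in the other 6 the reverse held. All 7 Cdk5r1-MADM libraries were of the mt-Nd3 kind, so the kind of library and the genotype overlapped in part. The 6 matching controls are called mt-Nd3 controls below.

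Control-MADM replicates 2 and 12 stood apart. The counts of replicate 2 lay furthest from those of the other controls, with a chi-squared statistic of 41.7 to 141.2 per gene over its 11 pairs. With replicate 2 aside, the statistic was 11.2 to 70.2 for the pairs of replicate 1 and 14.5 to 70.2 for those of replicate 8. It was 9.63 to 51.8 for those of replicate 12. Among the pairs of replicates 3, 4, 5, 6, 9, 10 and 11 it was 7.01 to 18.9, and replicate 12 gave 25.3 to 41.3 with these. Replicate 12 thus stood apart by this measure, as replicates 1 and 8 did, and also by its genes of other cells. A chi-squared statistic on counts covers counting error only and rises with depth. The pair with replicate 7, the control of lowest total (867748), gave the low end of the full ranges of replicates 1, 2, 8 and 12. The highest control total (6946345) was that of replicate 2. Replicate 2 had the lowest control level of Cdk5r1 and Cdk5r2 and the highest of Dpysl2, Gsk3b, Sox11, Bax and mt-Cytb. Replicate 12 held 13120 CPM (counts on a gene per 1e+06 counts, TMM scaled) of erythroid genes, 921 CPM of microglial genes, 739.9 CPM of meningeal fibroblast genes and 1493 CPM of interneuron genes, each the highest among the 19 libraries. Where leaving out 1 library, or using mt-Nd3 controls alone, turned the direction of a log2 fold change or moved it by over 1.5 times, the value is given beside it, for genes from a shift of 0.1 and for list medians from a shift of 0.05. These limits were chosen after the values were seen. Cdk5r1 and Gm10039 were the called genes without either library. Cdk5r1-MADM replicate 5, with 22.4% uniquely aligned reads and 60.2% of aligned reads outside genes, was not among the 7 libraries. With it 180 genes were called and the log2 fold change of Cdk5r1 was -0.42. That library held 218 counts on Cdk5r1 among 615516 on genes, a higher share than in any control. Per 1e+06 counts on genes the highest control held 244 and the highest of the 7 Cdk5r1-MADM libraries 74.1. Why Cdk5r1 was not lower in replicate 5 was not tested.

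Markers of neurons and progenitors of the dorsal cortex were present in the labelled cells. The control median of the mean log2 CPM was 8.62 for pan-neuronal genes, 7.07 for upper layer genes, 5.89 for deep layer genes and 7.42 for radial glia genes. Among lists of other cells it was 4.52 for erythroid genes, 4.47 for astrocyte genes, 2.74 for interneuron genes and 0.17 for microglial genes. Single markers of other cells were detected, and their level beside a neuronal gene depended on the scale. The control median was 127 CPM for Npy, a neuropeptide gene of interneurons, and 91.2 CPM for Hbb-bs, a haemoglobin gene. It was 1233 CPM for Stmn2, a microtubule regulator of growing neurons. Npy alone made up 33% of the mean summed control level of interneuron genes. Per kilobase of exon the control medians were 224 CPM for Npy, 119 CPM for Hbb-bs and 220.1 CPM for Stmn2. On the same scale C1qc, a complement gene of microglia, had a level of 1.34 CPM.

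Cdk5r1 fell in the mutant libraries and was 1 of 2 genes called among 12801 tested (0.0156%, edgeR adjusted p under 0.05). For Cdk5r1 (ENSMUSG00000048895.13, chromosome 11, 80477023 to 80481184, mm10), its lowest, median and highest level was 107, 204 and 241 CPM in the 12 control-MADM libraries and 59.3, 67.9 and 74.3 CPM in the 7 Cdk5r1-MADM libraries. The groups did not overlap. The log2 fold change was -1.54 (95% interval -1.78 to -1.29, edgeR adjusted p = 1.52e-10), lower in 7 of 7 libraries. The deletion leaves part of the transcript in place, and counts over the whole gene include what remains of it.

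The other activator and the kinase showed no call. For Cdk5r2, its lowest, median and highest level was 0.786, 14.9 and 20.5 CPM in the 12 control-MADM libraries and 16.9, 19.9 and 32.4 CPM in the 7 Cdk5r1-MADM libraries. The groups overlapped, with 3 mutant libraries above the highest control, and the log2 fold change was 0.74 (95% interval 0.11 to 1.37, edgeR adjusted p = 0.894). For Cdk5, the kinase itself, its lowest, median and highest level was 116, 159 and 186 CPM in the 12 control-MADM libraries and 141, 171 and 190.1 CPM in the 7 Cdk5r1-MADM libraries. These ranges overlapped, and the log2 fold change was 0.08 (95% interval -0.14 to 0.30, edgeR adjusted p = 0.945), so a change beyond 1.5-fold lay outside the interval. Ccni, the cyclin I gene whose product can bind CDK5, had a log2 fold change of 0.14 (95% interval -0.07 to 0.36, edgeR adjusted p = 0.897; 0.01 against mt-Nd3 controls). Over the CDK5 regulators 11 of 11 listed genes were tested, 8 had a fold change above 0 and 3 below, and the median was 0.08 (0.06 to 0.16 over all single libraries left out, 0.01 against mt-Nd3 controls), with Cdk5r1 the called member.

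**Figure D1:**
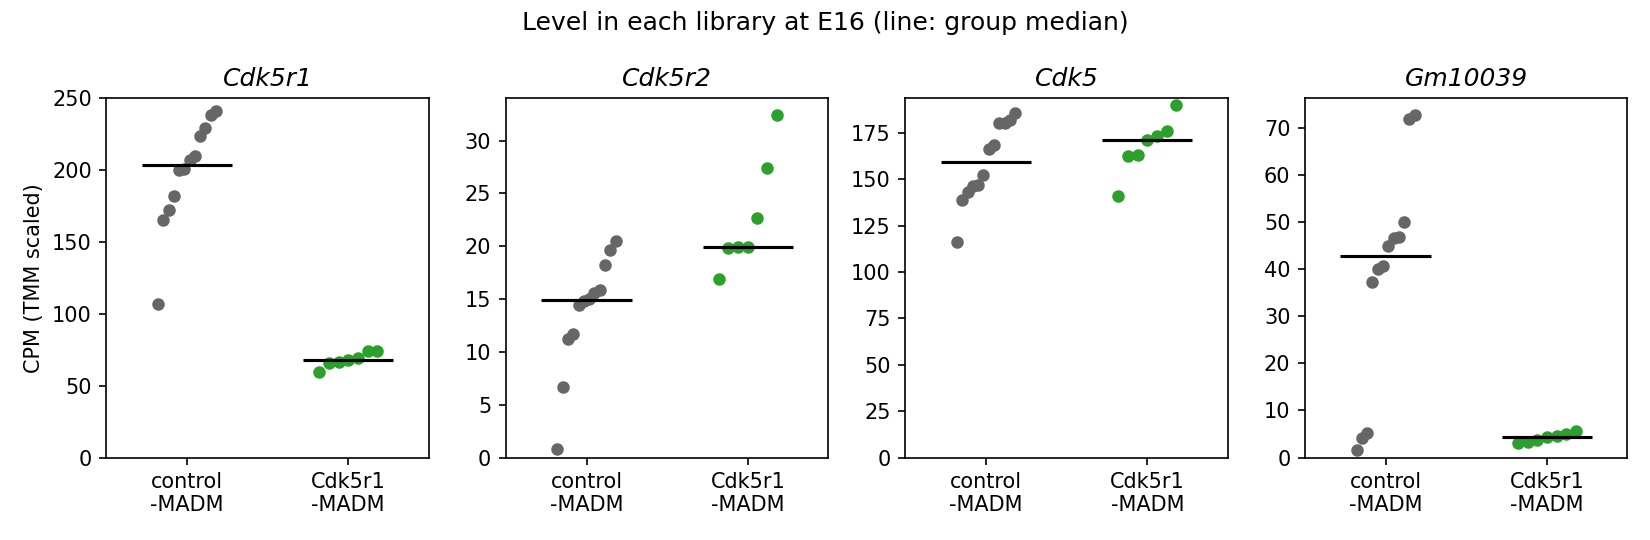
Level of Cdk5r1, Cdk5r2, Cdk5 and Gm10039 in CPM (TMM scaled, linear axes from 0) in each E16 library; points are libraries and lines are group medians. The 7 Cdk5r1-MADM libraries lie below all 12 controls for Cdk5r1, and 3 control libraries share the low level of Gm10039.

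Across the transcriptome both called genes were lower in Cdk5r1-MADM. At an unadjusted p under 0.05, 253 genes were higher (1.98%) and 436 lower (3.41%), and the median log2 fold change of all tested genes was -0.03. Against the 6 mt-Nd3 controls the balance turned, with 220 higher and 146 lower, and the total fell short of the 689 genes by over 1.5 times also without control-MADM replicate 2 (455 genes) or without Cdk5r1-MADM replicate 3 (434 genes). DESeq2 called 4 genes, among them Gm28438 and Hes1, and limma-voom called 4, among them Hes1, Tmem201 and Fst, a follistatin gene. Gm28438 and Fst were chosen after their values were seen. The counts of Gm28438 set the kind of library, and all 7 Cdk5r1-MADM libraries were of the mt-Nd3 kind. Its call is therefore not independent of that split.

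Gm10039 was the other gene called. It is annotated as a processed pseudogene (ENSMUSG00000091478.2) and lies on chromosome 11, minus strand, between 100361716 and 100362126. For Gm10039, its lowest, median and highest level was 1.71, 42.8 and 72.8 CPM in the 12 control-MADM libraries and 3.2, 4.48 and 5.75 CPM in the 7 Cdk5r1-MADM libraries. The groups overlapped, since control-MADM replicates 10, 11 and 12 lay at 1.71, 4.18 and 5.19 CPM, within or below the mutant range, while the other 9 controls lay at 37.3 CPM or more. The log2 fold change was -3.14 (95% interval -4.12 to -2.16, edgeR adjusted p = 0.00133), and the gene was called neither with only control-MADM and Cdk5r1-MADM in the fit nor by limma-voom. At P0, in CPM of the total on genes, its lowest, median and highest level was 2.56, 4.48 and 50.3 in control-MADM, 1.41, 4.28 and 5.27 in Cdk5r1-MADM and 1.82, 5.68 and 56.4 in KO-Cdk5r1-MADM. There the control and Cdk5r1-MADM medians both lay at the low level, and the groups overlapped. In 1 fit of both ages the log2 fold change was -3.15 at E16 (edgeR adjusted p = 0.233) and -2.34 at P0 (95% interval -3.82 to -0.85). That fit called the gene at neither age, and the difference between ages was 0.81 (edgeR adjusted p = 0.885). Controls took both levels, and a difference between animals apart from the Cdk5r1 genotype was not tested.

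Gm10039 is nearly identical in sequence to Atp5g1, which encodes subunit c of the mitochondrial ATP synthase. Over 411 aligned bases of the GENCODE M21 transcripts (GRCm38/mm10) Gm10039 and Atp5g1 differed at 1 base, G385A, with Atp5g1 named first and positions counted from 1 at the start of the Gm10039 transcript. The end of both is shown because reads over this base alone tell the genes apart within the shared stretch, and the capital marks it.
Gm10039: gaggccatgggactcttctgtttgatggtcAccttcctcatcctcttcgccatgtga
Atp5g1: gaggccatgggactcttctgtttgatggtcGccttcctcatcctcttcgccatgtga
Counts of such near-identical genes are uncertain. For Atp5g1, chosen after its values were seen, its lowest, median and highest level was 17, 21.5 and 53.1 CPM in control-MADM and 20.9, 23.5 and 27.6 CPM in Cdk5r1-MADM. These ranges overlapped, with a log2 fold change of -0.11 (95% interval -0.49 to 0.26).

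Genes that led the ranking without passing the test included a repressor of neurogenesis. Hes1, a Notch target that maintains radial glia, had the smallest p after the called genes among protein-coding genes. For Hes1, its lowest, median and highest level was 101, 131 and 242 CPM in the 12 control-MADM libraries and 64.9, 91.5 and 117 CPM in the 7 Cdk5r1-MADM libraries. The groups overlapped, although 5 mutant libraries lay below every control. The log2 fold change was -0.70 (95% interval -1.03 to -0.38, edgeR adjusted p = 0.453; -0.44 against mt-Nd3 controls); DESeq2 and limma-voom called it.

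The other leading genes with lower values were Lypla1, a depalmitoylating enzyme gene, Psmc3ip, a meiotic recombination cofactor gene, and Id1, an inhibitor of basic helix-loop-helix factors. Their log2 fold changes were -0.60 (95% interval -0.94 to -0.27), -0.88 (95% interval -1.37 to -0.39; -0.58 against mt-Nd3 controls) and -0.58 (95% interval -0.92 to -0.25), each with an edgeR adjusted p = 0.894. On the higher side stood Tmem201, a nuclear envelope protein gene with a role in nuclear movement, Kcnk3, a potassium leak channel gene, Nat8l, the enzyme gene for N-acetylaspartate synthesis, Trim67, a ubiquitin ligase gene of neurons, and Unc5a, a netrin receptor gene. Their log2 fold changes were 0.34 (95% interval 0.15 to 0.53), 1.07 (95% interval 0.47 to 1.67), 0.61 (95% interval 0.26 to 0.96), 0.49 (95% interval 0.20 to 0.78; 0.32 against mt-Nd3 controls) and 0.49 (95% interval 0.19 to 0.79), again with an edgeR adjusted p = 0.894. The ranges of the groups overlapped for each of these 8 genes. Psmc3ip lies on chromosome 11 within 1 megabase of Gm10039, and control-MADM replicates 10, 11 and 12, the controls with low Gm10039, were its 3 lowest controls at 42.6, 43.7 and 45.9 CPM, followed by replicate 5 at 51.2 CPM.

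How large a change could have been missed was read from the 95% intervals. They cover any difference between mutant cells in a heterozygous cortex and wild-type cells in the cortex of other animals. An effect within the mutant cell alone cannot be told apart from these. Of all tested genes 82.5% (10555 genes) had an interval within 2-fold in either direction, and 51.5% (6589 genes) within 1.5-fold. The share within 2-fold was 77.2% with the kind of library, mt-Nd3 or Gm28438, as a covariate. Against mt-Nd3 controls it was 79.1%. The limit depended on the level. In the 3200 genes with the highest control level (78.4 CPM or more), 98.4% lay within 2-fold and 86.2% within 1.5-fold, against 42.5% and 3.19% in the 3201 genes with the lowest (10.8 CPM or less). The median half-width of the interval was 0.26 and 0.81 log2 units in these groups of genes. For the other genes of lowest level the interval reached beyond 2-fold.

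**Figure D2:**
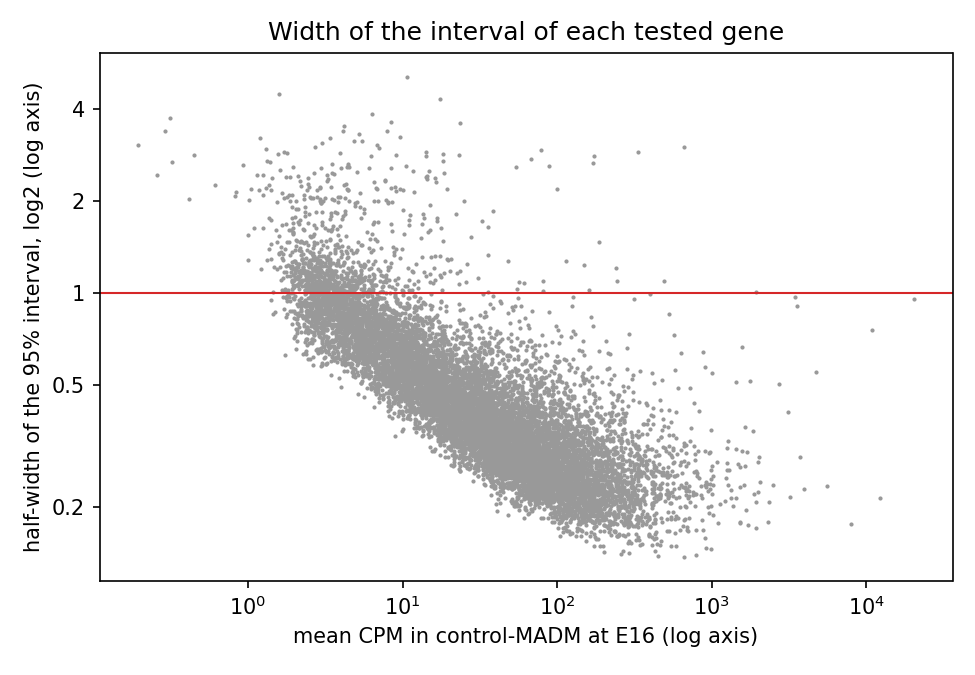
Half-width of the 95% interval of the log2 fold change (log axis) against mean CPM in control-MADM at E16 (log axis) for each tested gene; the red line marks a half-width of 1, or 2-fold. Intervals narrow with level, from a median half-width of 0.81 in the 3201 genes of lowest level to 0.26 in the 3200 of highest level.

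CDK5 substrates, the proteins through which the kinase acts on the cytoskeleton and on vesicles, gave no call. Of the list 27 of 29 listed genes were tested, 14 had a fold change above 0 and 13 below, and the median was 0.01. Intervals lay within 2-fold for 27 of 27, and 18 (66.7%) lay within 1.5-fold, against 51.5% of all tested genes. The control median of the list's mean log2 CPM was 7.07. Of the 3200 genes with the highest control level, 86.2% lay within 1.5-fold. Dpysl2, which encodes the microtubule-binding protein CRMP2, had a log2 fold change of -0.39 (95% interval -0.75 to -0.04; -0.20 without control-MADM replicate 2, -0.11 against mt-Nd3 controls). Dnm1, the dynamin gene of synaptic endocytosis, stood at 0.38 (95% interval 0.04 to 0.72) and Mapt, the tau gene, at 0.26 (95% interval 0.02 to 0.49), each with an edgeR adjusted p = 0.894.

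Reelin signalling, which guides radial migration, gave no call. Of the list 14 of 14 listed genes were tested, 8 had a fold change above 0 and 6 below, and the median was 0.11 (0.03 against mt-Nd3 controls), and 13 of 14 intervals lay within 2-fold. The exception was Reln itself, chosen after its values were seen, with an interval from -1.96 to 0.68. Log2 fold changes were 0.11 (95% interval -0.36 to 0.59; -0.03 against mt-Nd3 controls) for Dab1, the adaptor of the Reelin receptors, 0.24 (95% interval -0.06 to 0.54; 0.00 against mt-Nd3 controls) for Fyn, the kinase that phosphorylates it, and -0.23 (95% interval -0.57 to 0.10; -0.07 without control-MADM replicate 2, -0.13 against mt-Nd3 controls) for Gsk3b, a kinase downstream.

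The LIS1, dynein and microtubule list, the machinery that moves the nucleus, was the most tightly bounded of the pathway lists. All 32 of 32 tested genes had intervals within 2-fold, and 27 (84.4%) within 1.5-fold, with a median log2 fold change of 0.02. Over all tested genes 82.5% lay within 2-fold and 51.5% within 1.5-fold. The control median of the list's mean log2 CPM was 8.14. Of the 3200 genes with the highest control level, 98.4% lay within 2-fold and 86.2% within 1.5-fold, so the list was bounded much as other abundant genes were. The tubulin genes Tubb5 and Tuba1a stood at 0.00 (95% interval -0.17 to 0.18) and -0.10 (95% interval -0.34 to 0.13). For Tubb5 its lowest, median and highest level was 6341, 8157 and 8814 CPM in the 12 control-MADM libraries and 7405, 7769 and 8561 CPM in the 7 Cdk5r1-MADM libraries, and the ranges overlapped.

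Cues and contacts on the cell surface gave no call. Among guidance and migration genes 44 of 46 listed genes were tested, 24 had a fold change above 0 and 20 below, and the median was 0.01 (0.06 without control-MADM replicate 1), with 4 higher and 1 lower at an unadjusted p under 0.05 (over all tested genes, 1.98% higher and 3.41% lower) and 33 of 44 within 2-fold. The semaphorin receptor genes Nrp1 and Plxna2 had log2 fold changes of 0.02 (95% interval -0.64 to 0.68; -0.08 against mt-Nd3 controls) and 0.05 (95% interval -0.32 to 0.43; 0.21 without control-MADM replicate 1). Among cell adhesion genes 88 of 110 listed genes were tested, 46 had a fold change above 0 and 42 below, and the median was 0.02, with 67 of 88 within 2-fold. Cntn2, an axonal adhesion gene, stood at 0.28 (95% interval -0.16 to 0.71; 0.43 without control-MADM replicate 1), Ncam1, the neural cell adhesion molecule gene, at -0.25 (95% interval -0.74 to 0.24; -0.14 without control-MADM replicate 2, -0.14 against mt-Nd3 controls) and Gja1, the gap junction gene connexin 43, at -1.49 (95% interval -2.76 to -0.22; -0.25 without control-MADM replicate 12, -0.24 against mt-Nd3 controls). For Gja1 its lowest, median and highest level was 12.6, 21.6 and 350.4 CPM in the 12 control-MADM libraries and 14.1, 16.1 and 25.1 CPM in the 7 Cdk5r1-MADM libraries. The groups overlapped, and the highest control value came from control-MADM replicate 12.

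Matrix genes had more members below 0 than above with control-MADM replicate 12 and fewer without it. Among extracellular matrix genes 78 of 99 listed genes were tested, 30 had a fold change above 0 and 48 below, and the median was -0.07 (0.05 without control-MADM replicate 12, 0.08 against mt-Nd3 controls). Without control-MADM replicate 12, 43 were above 0 and 34 below. With it, 47 of 78 intervals lay within 2-fold (60.3%) and 18 within 1.5-fold (23.1%), against 82.5% and 51.5% of all tested genes. Ncan, a proteoglycan gene, and Mfap2, a microfibril gene, stood at -0.02 (95% interval -0.26 to 0.22) and -0.04 (95% interval -0.31 to 0.23), and Sdc4, a cell surface proteoglycan gene, at -0.99 (95% interval -1.79 to -0.18; -0.44 against mt-Nd3 controls). Of the synaptic vesicle genes, 55 of 60 listed genes were tested, 29 had a fold change above 0 and 26 below, and the median was 0.01. Rab3a and Syt11, genes of vesicle release and trafficking, stood at 0.04 (95% interval -0.13 to 0.22) and -0.12 (95% interval -0.34 to 0.10), and Stx7, an endosomal syntaxin gene, at -0.25 (95% interval -0.43 to -0.07).

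Most cell cycle genes had a fold change below 0, and none was called. Of the list 35 of 36 listed genes were tested, 2 had a fold change above 0 and 33 below, and the median was -0.25, against -0.03 for all tested genes, with 0 higher and 8 lower at an unadjusted p under 0.05. Of all 12801 tested genes 7047 lay below 0, and 436 (3.41%) were lower at that p. The mean log2 CPM of the tested members was 5.09, 5.61 and 5.89 (lowest, median and highest) in control-MADM and 5.04, 5.30 and 5.53 in Cdk5r1-MADM. The groups overlapped. The median was -0.26 without control-MADM replicate 12 and -0.18 against mt-Nd3 controls, where 2 genes were lower at an unadjusted p under 0.05. Against mt-Nd3 controls 3 members lay above 0 and 32 below, and 146 of all 12718 tested genes were lower at that p. Mcm6, a gene of the replicative helicase, had a log2 fold change of -0.46 (95% interval -0.73 to -0.18, edgeR adjusted p = 0.894), Mcm7 of -0.13 (95% interval -0.37 to 0.10), and Ube2c, a gene of mitotic exit, of -0.16 (95% interval -0.46 to 0.14). In bulk RNA, fewer cells of a type and less RNA per cell cannot be told apart.

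Progenitor genes showed no call. Among radial glia genes 18 of 18 listed genes were tested, 6 had a fold change above 0 and 12 below, and the median was -0.13, with 0 higher and 3 lower at an unadjusted p under 0.05 (over all tested genes, 1.98% higher and 3.41% lower). Fabp7, a fatty acid binding protein gene of radial glia, stood at -0.18 (95% interval -0.50 to 0.13) and Vim at 0.06 (95% interval -0.16 to 0.29; -0.04 against mt-Nd3 controls). Among intermediate progenitor genes 12 of 12 listed genes were tested, 7 had a fold change above 0 and 5 below, and the median was 0.03 (-0.03 without control-MADM replicate 2, -0.04 without control-MADM replicate 12, -0.04 to 0.09 over all single libraries left out, -0.11 against mt-Nd3 controls), with 0 higher and 2 lower at an unadjusted p under 0.05. The balance turned without control-MADM replicate 12, where 4 were above 0 and 8 below, and against mt-Nd3 controls, where 3 were above 0 and 9 below. Hes6, an antagonist of Hes1, stood at 0.08 (95% interval -0.17 to 0.33), Sstr2, a somatostatin receptor gene, at 0.17 (95% interval -0.24 to 0.57; 0.06 against mt-Nd3 controls) and Btg2, an antiproliferative gene, at -0.30 (95% interval -0.56 to -0.04).

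Layer identity genes gave no call. Among deep layer genes 16 of 16 listed genes were tested, 8 had a fold change above 0 and 8 below, and the median was 0.00 (0.08 without control-MADM replicate 3, 0.08 against mt-Nd3 controls), and all 16 of 16 intervals lay within 2-fold. Against mt-Nd3 controls 14 were above 0 and 2 below. Id2, a transcriptional inhibitor, stood at 0.09 (95% interval -0.19 to 0.38), Rprm, a cell cycle arrest gene, at -0.06 (95% interval -0.35 to 0.22; 0.06 against mt-Nd3 controls) and Crym, a thyroid hormone binding protein gene, at 0.22 (95% interval -0.13 to 0.58). Among upper layer genes 17 of 18 listed genes were tested, 14 had a fold change above 0 and 3 below, and the median was 0.11 (0.17 without control-MADM replicate 3, 0.05 without control-MADM replicate 12, 0.01 against mt-Nd3 controls); against mt-Nd3 controls 9 were above 0 and 8 below. Ptn, a growth factor gene, stood at 0.01 (95% interval -0.26 to 0.28), Lhx2, a cortical selector gene, at 0.11 (95% interval -0.44 to 0.66; -0.17 against mt-Nd3 controls) and Dok5, a receptor tyrosine kinase adaptor gene, at 0.27 (95% interval -0.05 to 0.59). Among pan-neuronal genes 18 of 18 listed genes were tested, 13 had a fold change above 0 and 5 below, and the median was 0.08, with Sox11, a neuronal transcription factor gene, at -0.60 (95% interval -1.27 to 0.06; -0.34 without control-MADM replicate 2, -0.37 against mt-Nd3 controls) and Stmn2 at 0.07 (95% interval -0.15 to 0.30).

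**Figure D3:**
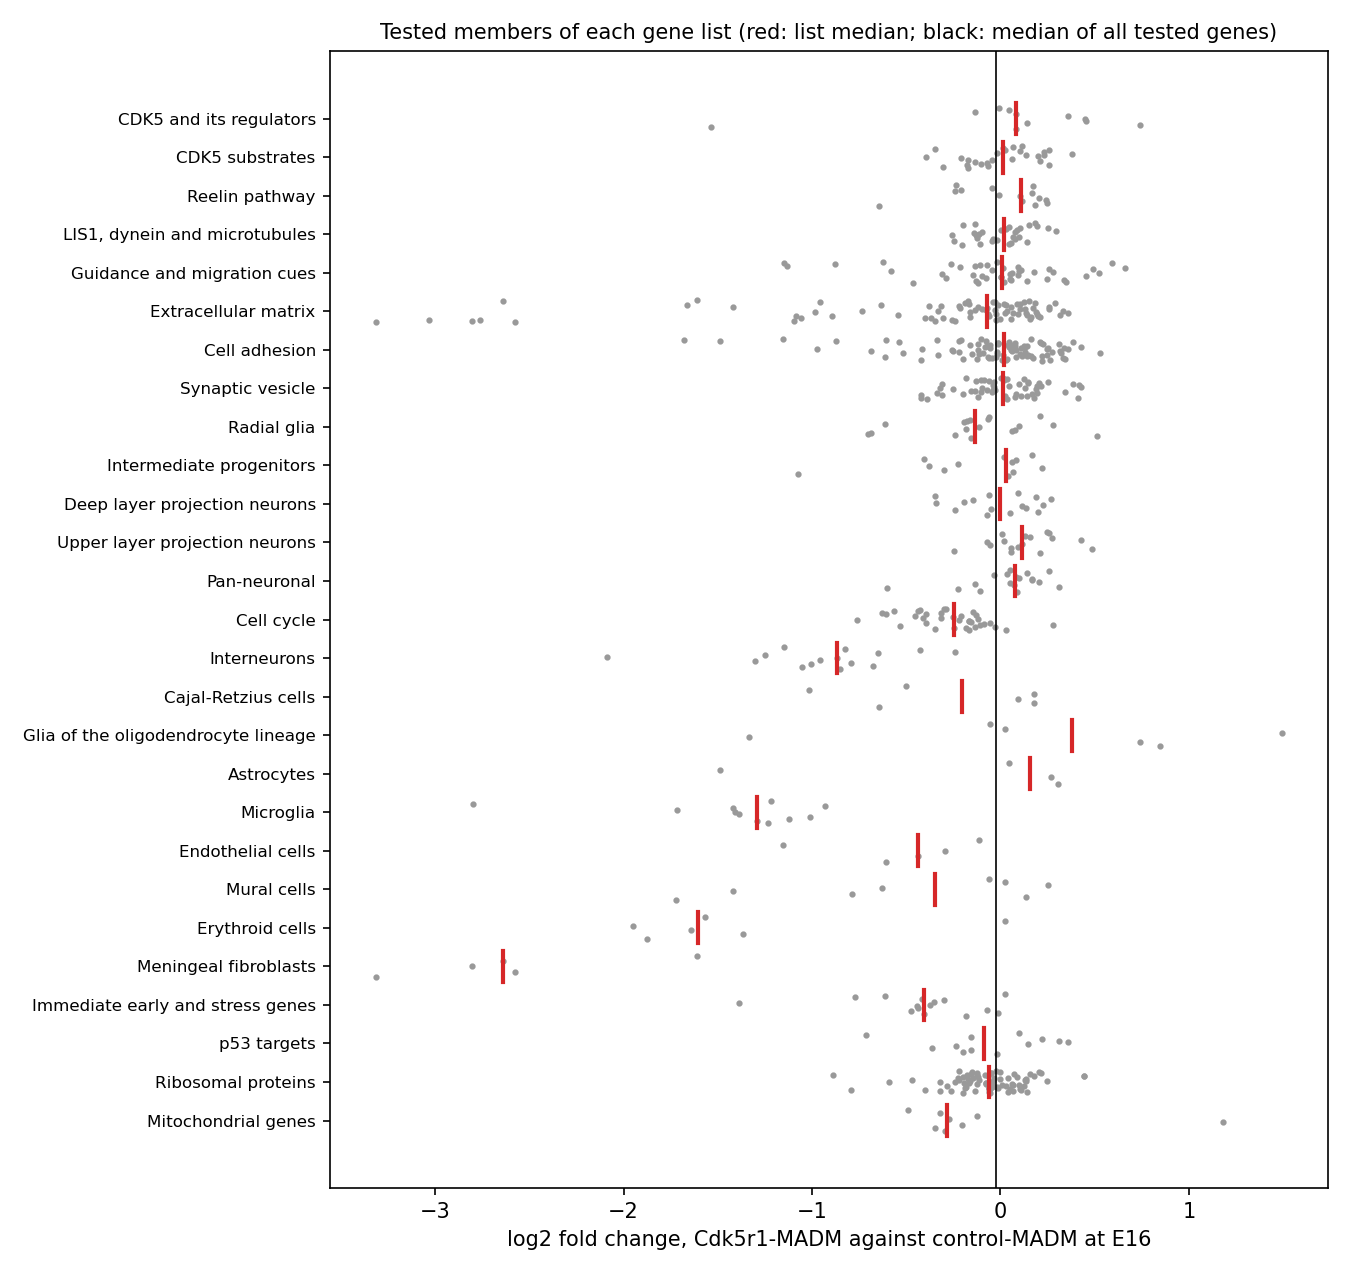
Log2 fold change (Cdk5r1-MADM against control-MADM at E16) of the tested members of each gene list other than those by chromosome position; grey points are genes, red lines list medians and the black line the median of all tested genes. Projection neuron and pathway lists centre near 0, cell cycle genes at -0.25, and the lists of other cells spread widely.

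The summed levels of interneuron, microglial, erythroid and meningeal fibroblast genes were highest in 1 control library, control-MADM replicate 12. Interneuron genes summed to a lowest, median and highest of 185, 251 and 1493 CPM in control-MADM and 135, 214 and 295 CPM in Cdk5r1-MADM. Their median log2 fold change was -0.87 (0.02 without control-MADM replicate 12, 0.03 against mt-Nd3 controls) over 15 of 16 listed genes, 14 of which passed the minimum count without control-MADM replicate 12; 0 of 15 intervals lay within 2-fold. Npy, their most abundant gene, was highest in control-MADM replicate 5 and stood at -0.65 (95% interval -1.21 to -0.09). No listed interneuron gene was at 0 in all 19 libraries, nor was any gene of the other cell types listed.

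Microglial genes summed to 0, 16.1 and 921 CPM in control-MADM and 1.78, 36.6 and 79.8 CPM in Cdk5r1-MADM, with a median log2 fold change of -1.29 (0.97 without control-MADM replicate 12, 1.40 against mt-Nd3 controls). Erythroid genes summed to 18.1, 201 and 13120 CPM in control-MADM and 11.1, 427 and 498 CPM in Cdk5r1-MADM, with a median of -1.60 (0.84 without control-MADM replicate 12, 0.85 against mt-Nd3 controls). Meningeal fibroblast genes summed to 7.07, 19.5 and 739.9 CPM in control-MADM and 3.2, 13.9 and 23.2 CPM in Cdk5r1-MADM, with a median of -2.64 (-0.58 without control-MADM replicate 12, -0.08 against mt-Nd3 controls). The direction of the first 2 turned when control-MADM replicate 12 was left out. Listed genes tested were 11 of 12 for microglia, 6 of 10 for erythroid cells and 5 of 8 for meningeal fibroblasts. Without control-MADM replicate 12, 8 microglial genes passed the minimum count, and 9 against mt-Nd3 controls, so their medians are over different members, and the direction of the genes that passed through that library alone is fixed by it. The most abundant genes of the 3 lists had log2 fold changes of -1.39 (95% interval -3.90 to 1.13; 0.45 without control-MADM replicate 12, 1.40 against mt-Nd3 controls) for C1qc of complement, -1.95 (95% interval -4.96 to 1.06; 0.79 without control-MADM replicate 12, 0.76 against mt-Nd3 controls) for Hbb-bs of adult haemoglobin and -3.32 (95% interval -6.15 to -0.48; -1.11 without control-MADM replicate 12, -0.50 against mt-Nd3 controls) for Col1a1 of collagen I.

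The remaining cell types gave no call, and control-MADM replicate 12 was the highest library for 4 of these 5 lists. The summed level of endothelial genes was 51, 71.9 and 332 CPM in control-MADM and 50.7, 68.6 and 134 CPM in Cdk5r1-MADM, and that of mural genes 39.7, 54.8 and 193 CPM in control-MADM and 42.8, 55.2 and 83.2 CPM in Cdk5r1-MADM. Astrocyte genes summed to 72, 122 and 432 CPM in control-MADM and 102, 113 and 167 CPM in Cdk5r1-MADM, and genes of the oligodendrocyte lineage to 40.4, 93.8 and 172 CPM in control-MADM and 72.2, 109.6 and 259.9 CPM in Cdk5r1-MADM. Cajal-Retzius genes summed to 20.1, 56.4 and 136 CPM in control-MADM and 41.1, 52.4 and 70.9 CPM in Cdk5r1-MADM. The groups overlapped for each list. Tested were 5 of 12 endothelial, 8 of 9 mural, 4 of 7 astrocyte, 6 of 7 oligodendrocyte lineage and 6 of 6 Cajal-Retzius genes. The median log2 fold change of endothelial genes was -0.44 (-0.04 without control-MADM replicate 12, -1.01 to -0.04 over all single libraries left out, 0.90 against mt-Nd3 controls), and 5 of 5 lay above 0 against mt-Nd3 controls, while all 5 lay below 0 against all controls. It was -0.35 (-0.15 without control-MADM replicate 3, 0.07 without control-MADM replicate 12, 0.10 against mt-Nd3 controls) for mural and 0.15 (0.08 without control-MADM replicate 2, 0.10 without control-MADM replicate 12, -0.02 to 0.21 over all single libraries left out, -0.19 against mt-Nd3 controls) for astrocyte genes. For the oligodendrocyte lineage it was 0.38 (0.78 without control-MADM replicate 12) and for Cajal-Retzius cells -0.20 (0.00 without control-MADM replicate 12, -0.40 to 0.00 over all single libraries left out, -0.04 against mt-Nd3 controls). Their most abundant genes were Slc2a1, a glucose transporter gene, Myl9, a myosin light chain gene, Aldh1l1, a folate enzyme gene, Sox8, a glial transcription factor gene, and Calb2, the calretinin gene. Their log2 fold changes were -0.12 (95% interval -0.61 to 0.38; 0.02 against mt-Nd3 controls), -0.06 (95% interval -0.57 to 0.44), 0.31 (95% interval -0.11 to 0.72; 0.10 against mt-Nd3 controls), -0.05 (95% interval -0.44 to 0.33; 0.11 against mt-Nd3 controls) and 0.18 (95% interval -0.61 to 0.96; 0.07 to 0.33 over all single libraries left out, 0.07 against mt-Nd3 controls). The part of these cells in the other results was not tested.

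Genes that report dissociation and RNA quality showed no call. Of the immediate early and stress genes 15 of 17 listed genes were tested, 1 had a fold change above 0 and 14 below, and the median was -0.41 (-0.13 without control-MADM replicate 12). Without control-MADM replicate 12, the highest library, 5 were above 0 and 10 below. Against mt-Nd3 controls the median was -0.30, and 3 of these genes were above 0 and 12 below. Their summed level had a lowest, median and highest of 1026, 2018 and 3882 CPM in control-MADM and 1398, 1558 and 2092 CPM in Cdk5r1-MADM. The control range held the mutant range, and Fos and Jun, the AP-1 genes, stood at -0.18 (95% interval -1.04 to 0.67; -0.29 without control-MADM replicate 2, -0.01 without control-MADM replicate 12, -0.32 to -0.01 over all single libraries left out, -0.39 against mt-Nd3 controls) and -0.01 (95% interval -0.45 to 0.42; -0.12 against mt-Nd3 controls). Of the p53 targets 12 of 14 listed genes were tested, 5 had a fold change above 0 and 7 below, and the median was -0.09 (0.00 without control-MADM replicate 12, -0.02 without Cdk5r1-MADM replicate 4, 0.09 against mt-Nd3 controls), with Bax, an apoptosis gene, at -0.20 (95% interval -0.50 to 0.10; -0.04 without control-MADM replicate 2, -0.01 against mt-Nd3 controls), Mdm2, the p53 ligase gene, at -0.15 (95% interval -0.39 to 0.08) and Trp53inp1, a stress-induced p53 cofactor gene, at -0.36 (95% interval -0.84 to 0.11; -0.11 without control-MADM replicate 1, -0.03 against mt-Nd3 controls). Ribosomal protein genes had a median of -0.06 (0.02 against mt-Nd3 controls) over 79 genes, with Rps3 at 0.06 (95% interval -0.11 to 0.23) and Rpl24 at -0.89 (95% interval -1.53 to -0.24); genes with near-identical copies, as ribosomal protein genes have, are uncertain in such counts. Mitochondrial genes had a median of -0.28 (-0.15 without control-MADM replicate 2, 0.00 against mt-Nd3 controls), with mt-Cytb of complex III at -0.49 (95% interval -1.04 to 0.06; -0.20 without control-MADM replicate 2, -0.15 against mt-Nd3 controls) and mt-Co1 of complex IV at -0.21 (95% interval -0.50 to 0.09).

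Genes near the deleted locus gave no call at E16. Within 5 megabases of Cdk5r1 on chromosome 11, 109 of 299 listed genes were tested, 57 had a fold change above 0 and 52 below, and the median was 0.01, and elsewhere on the chromosome the median was 0.01 over 892 genes. Of the genes near Cdk5r1, 6 were higher and 5 lower at an unadjusted p under 0.05 (over all tested genes, 1.98% higher and 3.41% lower); Cdk5r1 itself was left out of the list.

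The effect at E16 was set against that at P0, where 6 Cdk5r1-MADM and 12 control-MADM libraries came from separate cortices. In 1 fit of both ages the difference of the effects was called for 1 of 13007 genes (0.00769%). That gene was AA465934, a transcript of unassigned function on chromosome 11 from 83291699 to 83294632, within 5 megabases of Cdk5r1 and so in the list near the deleted locus. In CPM of the total on genes its lowest, median and highest level was 7.87, 62.8 and 159 in control-MADM and 38.9, 60.8 and 76.5 in Cdk5r1-MADM at E16. At P0 it was 2.48, 7.14 and 12.6 in the 12 control-MADM and 45.2, 62.8 and 64.9 in the 6 Cdk5r1-MADM libraries. The groups overlapped at E16, where control-MADM replicates 8 to 11 lay below every mutant library, and did not overlap at P0. The E16 controls took both levels, and a difference between animals apart from the Cdk5r1 genotype was not tested for this gene either. The log2 fold change was 0.11 at E16 and 2.99 at P0, with a difference of 2.89 (edgeR adjusted p = 0.00731), and with control-MADM and Cdk5r1-MADM alone in the fit it was not called. In the fit of E16 alone its log2 fold change was 0.12 (95% interval -0.69 to 0.93; 0.44 without control-MADM replicate 2, 0.01 without control-MADM replicate 11, 0.35 against mt-Nd3 controls).

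Cdk5r1 had a negative fold change at both ages. In the same fit its log2 fold change was -1.54 at E16 and -1.31 at P0, with a difference of 0.23 (edgeR adjusted p = 0.821). For Cdk5r2 the difference was -0.86 (edgeR adjusted p = 0.684), and for Hes1 0.47 (edgeR adjusted p = 0.771). In the whole-cortex deletion at E16, which shares these controls, the log2 fold change was -1.86 for Cdk5r1 and -3.25 for Gm10039, values that rest on the same 12 control libraries.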

How the data were processed

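The authors deposited read counts per gene for each library, made from SMART-Seq v2 libraries of sorted cells with STAR on mm10 without reads that aligned to more than 1 place, and column 2, the unstranded counts, was used here. Without strand, reads of overlapping genes cannot be told apart. The submitters' processing notes also name R 3.6.1 and bedtools. Of 53379 gene identifiers, 50604 (94.8%) matched the GENCODE M21 annotation (GRCm38) with their version.

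Counts were fitted in R 4.3.3 with edgeR 4.0.16 (TMM scaling, robust quasi-likelihood F test, genes with a mean count above 10, Benjamini-Hochberg adjustment, threshold 0.05) at E16 over 12 libraries of control-MADM, 7 of Cdk5r1-MADM and 11 of KO-Cdk5r1-MADM. The 95% interval is the log2 fold change plus or minus the t quantile times its standard error, derived from the F statistic. The difference between ages came from 1 fit of E16 and P0, whose per-age levels were scaled to total counts on genes. Library measures were compared by exact permutation over libraries. Levels are CPM, with a prior count of 1 on the log2 scale. DESeq2 1.42.0, limma 3.58.1 and designs with covariates, with a replicate block or without single libraries served as alternatives. The code was tested on simulated data. Counting error and biological spread both enter the intervals; reads carried no molecular identifiers.

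Named genes were Cdk5r1, Cdk5r2 and Cdk5, every called gene, the 5 protein-coding genes with the smallest p in each direction, the 2 most abundant and the 1 of smallest p of each pathway, lineage or quality list, and the most abundant gene of each list of other cells; others are marked where they occur. Members and lists were chosen with earlier results of these data known. 20 of 711 listed genes are in more than 1 list. Genes of chromosome 18 were not named. The values of 1 gene that the rule names are not reported here.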

Additional observations from a re-analysis of the deposited data

Results flagged for a closer look

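Single Cdk5r1-MADM libraries lay far from the other 6 in 6 values. Replicate 7 had the highest level of Gja1 (25.1 CPM) and the highest mean log2 CPM of astrocyte genes (5.08), and Gja1 belongs to that list. Replicate 3 had the lowest level of Hbb-bs (0 CPM) and the lowest mean log2 CPM of erythroid genes (-0.59), to which Hbb-bs belongs. Replicate 1 had the highest Rpl24 (3.54 CPM) and replicate 6 the highest mt-Cytb (5106 CPM). The gap to the nearest library was set against the range of the group for 69 genes, 29 lists and 3 library measures. Chance alone gives such a gap in about 1 in 20 groups, so several such gaps would arise by chance among these items. Whether the 6 values exceed that number was not tested.

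The difference between Cdk5r1-MADM and control-MADM in AA465934 was larger at P0 than at E16 by 2.89 on the log2 scale in the edgeR test of the difference. With those 2 genotypes alone in the fit it was not called, the E16 controls took a high or a low level, and a difference between animals apart from genotype was not tested.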

How the results depend on the processing

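Cdk5r1 and Gm10039 were the called genes with every single library left out, and the count of called genes was 4 with DESeq2, 4 with limma-voom and 1 with control-MADM and Cdk5r1-MADM alone; the last 2 did not call Gm10039. Without a mean-count minimum 32.1% of genes had an interval within 2-fold, over the genes whose interval could be estimated (not for 2127). The difference between ages was called for 0 genes with edgeR on control-MADM and Cdk5r1-MADM alone, where 1136 genes had an unadjusted p under 0.05; DESeq2 on all groups called 1. Genes at an unadjusted p under 0.05 numbered 192 with the mitochondrial class as a covariate, 366 with controls of that class alone, 1470 with limma-voom and 2511 without a minimum. Library measures with the library of low alignment, and with libraries of at least 1e+06 counts alone, were alternatives chosen after seeing the data. Causes of the changes below were not tested.

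With Cdk5r1-MADM replicate 5 included, 180 genes were called (178 higher), the median of all genes was -0.10, and Cdk5r1 was not called. The share of counts on Cdk5r1 in that library was above that of every control. Log2 values were then -0.42 for Cdk5r1, -0.10 for the list CDK5 substrates, -0.073 for the list LIS1, -0.12 for the list Synaptic vesicle, -0.070 for the list Chromosome 11 near Cdk5r1, -0.080 for the list Chromosome 11 elsewhere, -0.081 for Cdk5, -0.026 for Ccni, 0.034 for Ncan, 0.32 for Fabp7, -0.0014 for Sstr2, 0.25 for Mcm7, 0.035 for Jun.

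With the replicate number as a replicate block, 2 genes were called and 1736 had an unadjusted p under 0.05. Same-numbered libraries had correlated deviations above 0.1 in 2 of 7 pairs and 2 libraries correlated best with their own number, so the numbers do not pair them. Log2 values under the block were 1.24 for the list Glia of the oligodendrocyte lineage, 0.95 for the list Microglia, 1.93 for the list Erythroid cells, -0.48 for the list Meningeal fibroblasts, 0.37 for the list Immediate early and stress genes, 0.13 for the list p53 targets, -0.12 for Dab1, 0.00090 for Tuba1a, -0.39 for Nrp1, -0.048 for Id2, 0.020 for Rprm, -0.058 for Ptn, -0.11 for Lhx2, 0.76 for C1qc, 0.16 for Slc2a1, 0.13 for Myl9, 2.00 for Hbb-bs, 0.50 for Fos, 0.26 for Jun.

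With a covariate for reads outside genes, log2 values were -0.040 for Plxna2, 0.025 for Ncan, 0.079 for Mfap2.

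With the mitochondrial class as a covariate they were -0.20 for the list Astrocytes, 1.40 for the list Microglia, -0.086 for the list Meningeal fibroblasts, -0.033 for Dab1, -0.0066 for Fyn, -0.022 for Tubb5, -0.085 for Nrp1, 0.0069 for Ncan, 0.045 for Mfap2, -0.046 for Vim, 0.052 for Rprm, -0.17 for Lhx2, 0.10 for Sox8, 1.40 for C1qc, 0.014 for Slc2a1, 0.77 for Hbb-bs.

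Against controls of the mt-Nd3 class alone they were -0.19 for the list Astrocytes, 1.40 for the list Microglia, -0.079 for the list Meningeal fibroblasts, -0.028 for Dab1, -0.0010 for Fyn, -0.016 for Tubb5, -0.082 for Nrp1, 0.013 for Ncan, 0.050 for Mfap2, -0.040 for Vim, 0.057 for Rprm, -0.17 for Lhx2, 0.11 for Sox8, 1.40 for C1qc, 0.017 for Slc2a1, 0.0029 for Myl9, 0.76 for Hbb-bs.

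With sex as a covariate the log2 value was 0 for Tubb5.

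With libraries of at least 1e+06 counts it was -0.0059 for Ptn.

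With limma-voom log2 values were -0.70 for the list Meningeal fibroblasts, -0.042 for Tubb5, 0.0049 for Ncan, 0.0014 for Mfap2, -0.021 for Vim, -0.028 for Lhx2, 0.021 for Sox8, 0.27 for C1qc, -0.014 for Rps3.

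With 1 library left out in turn, log2 values ran from -1.56 to 0.97 for the list Microglia, from -3.03 to -0.58 for the list Meningeal fibroblasts, from -0.021 to 0.020 for Tubb5, from -0.073 to 0.091 for Nrp1, from -0.015 to 0.21 for Plxna2, from -0.071 to 0.024 for Ncan, from -0.075 to 0.031 for Mfap2, from -0.0010 to 0.11 for Vim, from -0.13 to 0.00080 for Rprm, from -0.023 to 0.063 for Ptn, from -0.15 to 0.034 for Sox8, from -1.85 to 0.45 for C1qc, from -0.15 to 0.018 for Myl9, from -2.07 to 0.79 for Hbb-bs, from -0.11 to 0.059 for Jun. The extremes at the upper end for C1qc, Hbb-bs, microglia and meningeal fibroblasts came without control-MADM replicate 12.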
